A study of Homo sapiens with 4 samples.

Results

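The A-kinase anchoring proteins were taken as 10 named genes, AKAP1, AKAP5, AKAP6, AKAP7, AKAP8, AKAP8L, AKAP9, AKAP11, AKAP12 and AKAP13, and all 10 were found among the 2864 genes with values in the table used here. RNA had been sequenced from A375, a human melanoma cell line, with 1 library for each of 4 conditions. A375P was the parental line without treatment, and A375R was a resistant strain that the authors derived from it by stepwise exposure and kept in vemurafenib, an inhibitor of the BRAF kinase. A375+DMSO had the solvent for 48 h and A375+VEM had 2 μM vemurafenib for 48 h, both on A375 cells. The labels give all 4 libraries a wild-type genotype, the same culture medium and the same batch. The authors set their work in melanoma with mutated BRAF, so the wild-type label should not be read as BRAF status. A375R is 1 strain, and no library had a replicate, so every difference below is between 2 libraries, has no replicate check and carries no p-value. Gene names in the table run in alphabetical order no further than CAC, so the subunits of protein kinase A itself were not analysed here.

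A-kinase anchoring proteins are scaffolds without a common fold. Most carry a short helix that docks the regulatory subunits of protein kinase A, the main kinase of the second messenger cAMP, and other domains that fix the scaffold to a certain place in the cell. By that means a cAMP signal made at a receptor reaches some substrates and not others. In pigment cells cAMP is best known as the messenger of the melanocortin receptor, and protein kinase A can phosphorylate RAF kinases, the family that BRAF belongs to.

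Levels are given as TPM, which corrects the authors' counts for the length of the gene and for the library, so genes can be compared with each other. Over the genes in the table the counts summed to between 1891215 and 2054277 per library, a fraction of the full depth. A gene was called past 1.5-fold when its ratio of (TPM + 0.1) exceeded that in either direction and its TPM was at least 1 in 1 of the 2 libraries. Log2 ratios are on that scale, where changes of low genes come out too small, and folds are ratios of TPM alone. Intervals are exact 95% intervals on the reads (Clopper-Pearson for ratios, Poisson for levels) and cover counting error only. The median log2 ratio of all genes tested was 0.15 for A375+VEM against A375P, 0.11 for the acute pair (A375+VEM against A375+DMSO) and 0.10 for the resistant pair (A375R against A375P), so ratios near the threshold are affected by the scaling. In bulk RNA, fewer cells with a transcript and less of it per cell cannot be told apart. Of 5 genes linked to pigment cells in this part of the alphabet, 4 reached a TPM of 1 in some library, with summed TPM between 47.0 and 60.7, most of it BACE2 in the 3 libraries other than A375+VEM, where APOE had 26.3 and BACE2 20.9. Of 9 immune cell markers none reached it, and their summed TPM was at most 1.63. Of 4 epithelial markers 1 did, BARX2, with summed TPM of the list at most 1.80.

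AKAP12 and AKAP8L led the family, whose total was highest where AKAP12 was. The TPM of the whole family was 257 in A375P, 289 in A375+DMSO, 308 in A375+VEM and 437 in A375R. AKAP12 made up 53.3% of that sum in A375R, against 27.4% in A375P, 31.6% in A375+DMSO and 28.1% in A375+VEM. AKAP8L was the other large share, from 14.3% in A375R to 28.2% in A375P. AKAP5, AKAP6 and AKAP7 were the 3 lowest in A375P, A375R and A375+DMSO. In A375+VEM AKAP6 was above AKAP7, while AKAP5 was lowest in every library. Of the 10 genes 9 reached a TPM of 1 in at least 1 library, and AKAP5 did not.

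**Figure D1:**
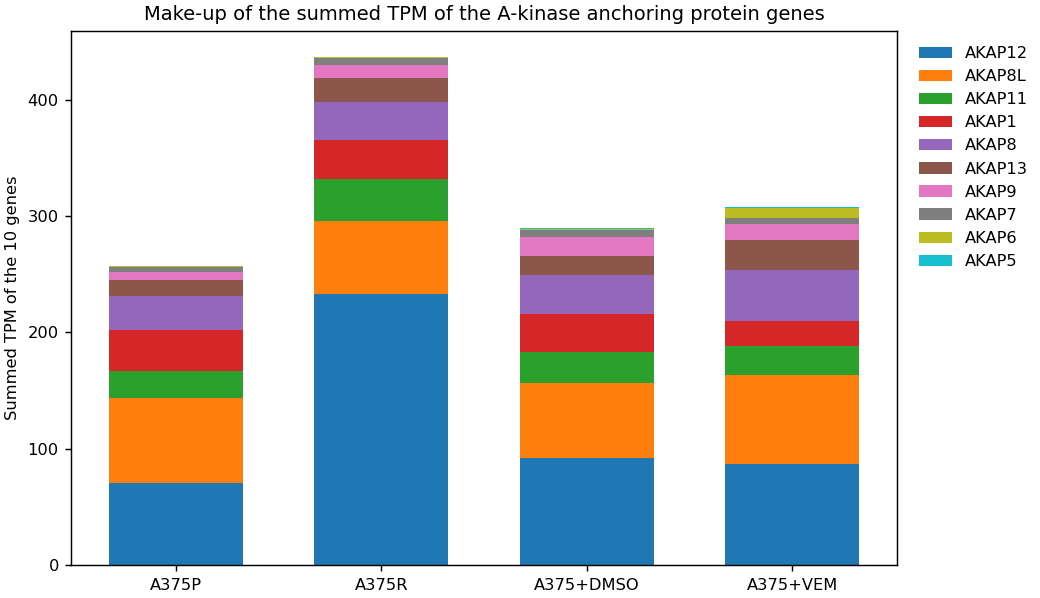
Summed TPM (vertical axis) of the 10 genes in each of the 4 libraries (horizontal axis), with 1 coloured block per gene stacked in the order of their TPM in A375R. The AKAP12 block at the base is 53.3% of the A375R bar and between 27.4% and 31.6% of the others.

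**Figure D2:**
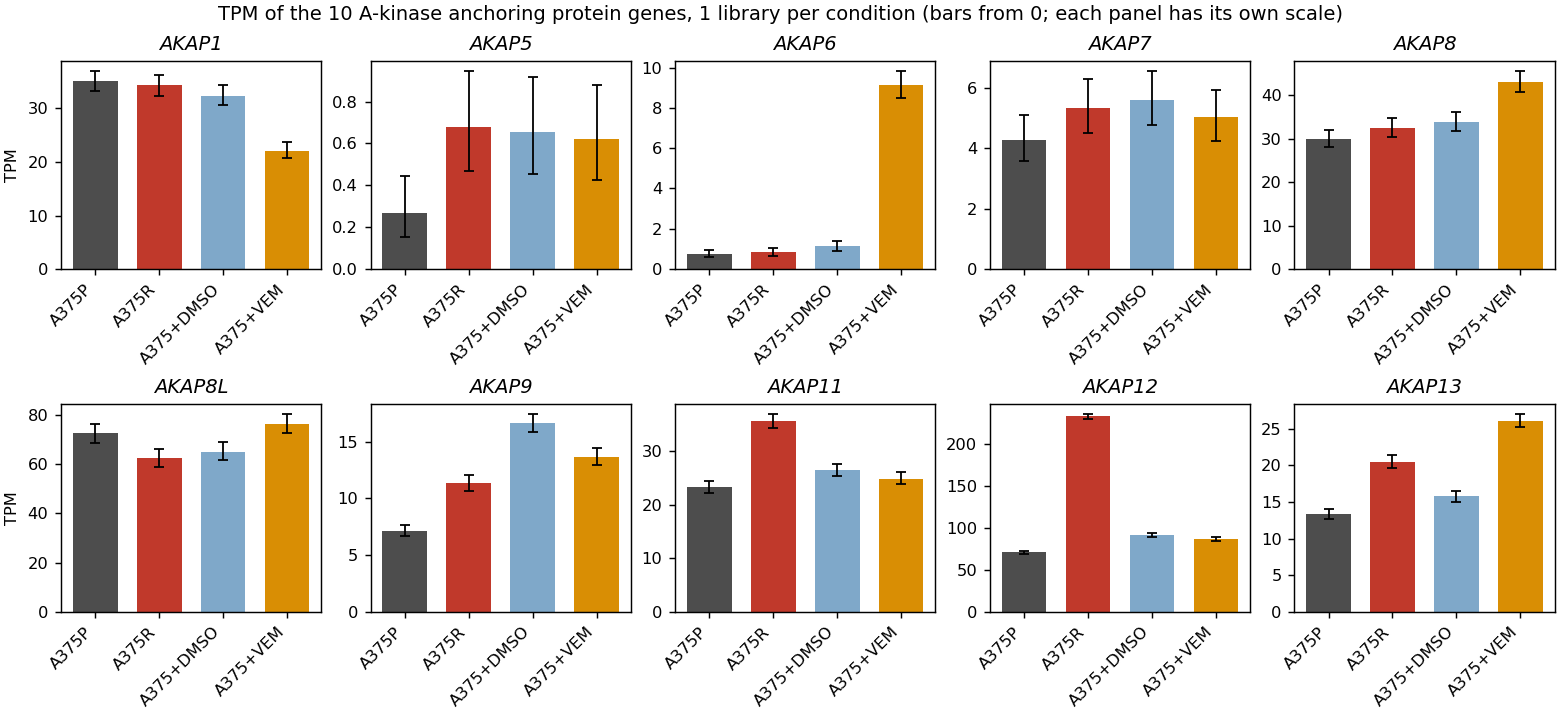
TPM (vertical axes, each with its own scale from 0) of each gene in the 4 libraries. Bars are single libraries and whiskers are exact 95% Poisson intervals on the reads. AKAP12 stands out in A375R and AKAP6 in A375+VEM, while AKAP7 and AKAP8L vary little.

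AKAP12 was the member with the clearest difference in the resistant strain. It encodes gravin, a large scaffold under the plasma membrane that binds protein kinase A and protein kinase C. On hg19, the build named in the submitters' processing notes, the authors place it on the plus strand of chromosome 6, from 151561134 to 151679694. It had 5313 reads in A375P, 6439 in A375+DMSO, 6035 in A375+VEM and 15843 in A375R. The TPM was 70.5 in A375P, 91.6 in A375+DMSO, 86.5 in A375+VEM and 233 in A375R, so A375R was high and the other 3 lay close together. A375R was 3.30-fold above A375P, with an interval from 3.20 to 3.41, and 2.54-fold above A375+DMSO, with an interval from 2.47 to 2.62. Among the genes of the table AKAP12 ranked 268 by TPM in A375P and 54 in A375R. Its log2 ratio of 1.72 against A375P ranked 97 of 1689 genes tested, and that of 1.34 against A375+DMSO ranked 44 of 1702. The acute treatment left it near its control, at 0.944-fold with an interval from 0.911 to 0.978. A375+VEM was 1.23-fold and A375+DMSO 1.30-fold above A375P.

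AKAP12 is transcribed from alternative starts, and the count per gene does not separate them. RefSeq's table for GRCh38.p14 gives 3 starts, shown here since AKAP12 changes most in the resistant strain. Each stretch holds 250 bases before the start and 50 after it. Capitals mark the E-box CACGTG, a motif bound by basic helix-loop-helix factors, which was searched for after the sequences had been seen.
AKAP12, chr6:151239717-151240016, plus strand: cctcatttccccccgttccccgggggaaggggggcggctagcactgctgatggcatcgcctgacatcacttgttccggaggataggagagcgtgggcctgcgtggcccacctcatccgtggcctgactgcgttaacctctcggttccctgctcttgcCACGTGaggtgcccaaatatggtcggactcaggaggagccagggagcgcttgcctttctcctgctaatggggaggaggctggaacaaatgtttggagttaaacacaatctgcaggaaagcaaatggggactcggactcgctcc
AKAP12, chr6:151325281-151325580, plus strand: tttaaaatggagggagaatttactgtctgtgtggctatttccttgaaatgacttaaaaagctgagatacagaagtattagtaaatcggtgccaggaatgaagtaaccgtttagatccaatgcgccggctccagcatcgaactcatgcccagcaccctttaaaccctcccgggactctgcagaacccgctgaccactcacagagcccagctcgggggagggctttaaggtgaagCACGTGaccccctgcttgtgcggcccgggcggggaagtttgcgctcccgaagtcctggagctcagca
AKAP12, chr6:151341456-151341755, plus strand: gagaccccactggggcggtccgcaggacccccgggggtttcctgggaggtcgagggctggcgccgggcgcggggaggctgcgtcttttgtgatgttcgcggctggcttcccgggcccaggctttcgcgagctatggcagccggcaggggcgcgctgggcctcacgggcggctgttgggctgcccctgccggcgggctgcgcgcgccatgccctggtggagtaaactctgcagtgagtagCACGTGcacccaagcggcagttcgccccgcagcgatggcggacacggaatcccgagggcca
Each of the 3 held 1 copy, which began 93, 17 and 11 bases before the start. CACGTG reads the same on both strands and was found in 7.26% of all 35093 promoters of the table. Of 16 promoters for 9 members, 4 held it, and the fourth belonged to AKAP1. AKAP8L had no entry.

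AKAP6 had the widest range of all members, through the acute treatment alone. It encodes the anchor of the nuclear envelope known from heart and skeletal muscle and neurons, where it joins protein kinase A to a cAMP phosphodiesterase. It lies on the plus strand of chromosome 14, from 32798479 to 33302268 (hg19). There were 67 reads in A375P, 93 in A375+DMSO, 755 in A375+VEM and 67 in A375R. The TPM was 0.753 in A375P, 1.12 in A375+DMSO, 9.15 in A375+VEM and 0.833 in A375R. So AKAP6 was near the detection filter in the 3 libraries outside acute treatment and well above it in A375+VEM. A375+VEM was 8.18-fold above A375+DMSO, with an interval from 6.58 to 10.3, and 12.2-fold above A375P, with an interval from 9.46 to 15.9. The log2 ratio of 2.92 against A375+DMSO ranked 22 of 1784 genes tested. A375R differed from A375P by 1.11-fold, with an interval from 0.777 to 1.58, and from A375+DMSO by 0.744-fold, with an interval from 0.535 to 1.03, and neither difference was detectable at this depth. In A375+VEM 7 genes of cell division (ANLN, ASPM, AURKA, AURKB, BIRC5, BUB1 and BUB1B) also stood apart, with a summed TPM of 19.8 against 468 in A375+DMSO, 446 in A375R and 297 in A375P. Their part in the AKAP6 value was not tested.

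The start of AKAP6 in the same RefSeq table is shown beside those of AKAP12 because AKAP6 differs most under acute treatment. None of the motifs searched occurs in it, so it is in lower case throughout.
AKAP6, chr14:32329048-32329347, plus strand: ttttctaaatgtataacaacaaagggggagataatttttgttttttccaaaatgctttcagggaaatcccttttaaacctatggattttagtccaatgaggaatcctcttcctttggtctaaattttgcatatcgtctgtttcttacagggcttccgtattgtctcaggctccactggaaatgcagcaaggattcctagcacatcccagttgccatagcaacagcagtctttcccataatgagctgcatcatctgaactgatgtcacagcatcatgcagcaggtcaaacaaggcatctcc
Its GC content was 41.3%, against 59.7%, 53.3% and 72.3% in the AKAP12 stretches and a median of 58.7% over all promoters. The cAMP response element TGACGTCA was in none of the 16 member promoters and in 1.85% of all promoters. The shorter site TGACG, which the full element contains, was searched on both strands. It was in 7 member promoters, of AKAP1, AKAP7, AKAP8 and AKAP9, and in 24.5% of all promoters. Overlapping stretches of AKAP1 held the same site, so the 7 are not all separate sites. GC content was not matched between member promoters and all promoters. The AP-1 site TGACTCA was in none of the 16 and in 4.95% of all, and the E-box CATGTG was in 1, of AKAP7, and in 11.1% of all.

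Genes whose profile over the 4 libraries lay nearest to AKAP6 were sought among the 1699 genes whose TPM averaged 1 or more. The nearest were ARHGEF37, ANK3 and CACNA1D, with largest differences of 0.25, 0.30 and 0.35 in centred log2(TPM + 0.1). ANK3, which encodes ankyrin G, had a TPM of 5.34 in A375P, 8.52 in A375+DMSO, 82.8 in A375+VEM and 6.41 in A375R. CACNA1D, the pore of an L-type calcium channel, had 9.32 in A375+VEM and 1.61 in A375+DMSO, and ARHGEF37 had 72.9 and 7.56. With 4 libraries this likeness is a description.

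The widest difference of AKAP9 was between the 2 libraries that had no drug. It encodes the large anchor of the centrosome and Golgi apparatus, where microtubules are nucleated, and lies on chromosome 7 from 91570189 to 91739987 (hg19). Its reads numbered 764 in A375P, 1665 in A375+DMSO, 1356 in A375+VEM and 1098 in A375R. The TPM was 7.15 in A375P, 16.7 in A375+DMSO, 13.7 in A375+VEM and 11.4 in A375R, so the rising order was A375P, A375R, A375+VEM and A375+DMSO, with each step beyond counting error. The step from A375R to A375+VEM depended on the scaling. Their log2 ratios against A375P were 0.66 and 0.93. With TMM scaling, a correction for differences in RNA composition, they were 0.59 and 0.70. A375+DMSO was 2.34-fold above A375P, with an interval from 2.14 to 2.55. A375R was 1.59-fold above A375P but 0.681-fold of A375+DMSO, with intervals from 1.45 to 1.75 and from 0.631 to 0.736. The direction of AKAP9 in the resistant strain therefore depended on which control was used. The same held in A375+VEM, at 0.820-fold of A375+DMSO and 1.92-fold of A375P. The summed TPM of the 7 cell division genes named above was also higher in A375R and A375+DMSO than in A375P. The A375+VEM library went the other way, since that sum fell to 19.8, below the 297 of A375P, while AKAP9 was 1.92-fold higher. The part of cell division in the AKAP9 values was not tested.

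AKAP13 was lowest in the libraries without vemurafenib. It encodes AKAP-Lbc, an anchor that is also an exchange factor for the small GTPase RhoA, and lies on chromosome 15 from 85923847 to 86292589 (hg19). It had 1552 reads in A375P, 1714 in A375+DMSO, 2825 in A375+VEM and 2159 in A375R. Its TPM was 13.3 in A375P, 15.8 in A375+DMSO, 20.5 in A375R and 26.1 in A375+VEM, and every step exceeded counting error. A375R was 1.54-fold above A375P (interval 1.44 to 1.64) and 1.30-fold above A375+DMSO (interval 1.22 to 1.39). A375+VEM was 1.66-fold above A375+DMSO (interval 1.56 to 1.76) and 1.96-fold above A375P. Among the members, AKAP13 alone passed 1.5-fold in both of the study's pairs, and the share of all genes that did so was not computed. Both calls were close to the threshold. With TMM scaling the log2 ratios were 0.55 in the resistant pair and 0.58 in the acute pair, both just under 1.5-fold.

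AKAP11 was highest in A375R. It encodes an anchor of vesicles and the cytosol that also binds glycogen synthase kinase and a protein phosphatase, and lies on chromosome 13 from 42846289 to 42897403 (hg19). The TPM was 23.3 in A375P, 26.5 in A375+DMSO, 24.9 in A375+VEM and 35.7 in A375R. A375R was 1.53-fold above A375P (interval 1.45 to 1.62) and 1.35-fold above A375+DMSO (interval 1.27 to 1.43), so it stood above the other 3 libraries beyond counting error. Scaled to a median ratio of 1, its log2 ratio against A375P was 0.51 and that of AKAP9 was 0.56, both under 1.5-fold.

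AKAP1 was the member that was lower in A375+VEM than in every other library. It holds protein kinase A on the outer mitochondrial membrane and lies on chromosome 17 from 55162553 to 55198710 (hg19). The TPM was 35.2 in A375P, 32.4 in A375+DMSO, 22.1 in A375+VEM and 34.3 in A375R. A375+VEM was low and the other 3 lay close together, and A375R did not differ from A375P beyond counting error (0.975-fold, interval 0.902 to 1.05). A375+VEM was 0.683-fold of A375+DMSO, with an interval from 0.624 to 0.747, which is within 1.5-fold. It was 0.630-fold of A375P, with an interval from 0.577 to 0.687, which is past it. Scaled to a median ratio of 1 the log2 ratio against A375+DMSO was -0.65, also past 1.5-fold.

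AKAP8 and AKAP8L stayed within 1.5-fold in all 5 comparisons. AKAP8 encodes a nuclear matrix protein linked to chromosome condensation, and AKAP8L is its paralogue. The genes are neighbours on the minus strand of chromosome 19, AKAP8 from 15464332 to 15490612 and AKAP8L from 15490859 to 15529932 (hg19), with 246 bases between them. AKAP8 had a TPM of 29.9 in A375P, 33.9 in A375+DMSO, 43.1 in A375+VEM and 32.5 in A375R. A375+VEM was 1.27-fold above A375+DMSO, with an interval from 1.17 to 1.39. AKAP8L had 72.6 in A375P, 65.2 in A375+DMSO, 76.6 in A375+VEM and 62.7 in A375R. The ratio of AKAP8L to AKAP8 was 2.43 in A375P and between 1.77 and 1.93 in the other libraries. In GENCODE 29, 31.8% of the annotated exon bases of AKAP8L overlap other transcripts, all of the opposite strand, against at most 9.61% for any other member. Whether reads were counted by strand is not given in the sources used here, so the reads of AKAP8L and of those transcripts cannot be told apart. AKAP8 also has a pseudogene, AKAP8P1, and how reads that fit both were counted is not given either.

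The membrane anchors AKAP5 and AKAP7 were at low levels. AKAP7 encodes a small anchor found near ion channels and lies on chromosome 6 from 131456826 to 131604675 (hg19). Its TPM was 4.28 in A375P, 5.60 in A375+DMSO, 5.02 in A375+VEM and 5.34 in A375R. No neighbours in the order of these levels differed beyond counting error, while the highest, A375+DMSO, was 1.31-fold above the lowest, A375P (interval 1.03 to 1.67). AKAP5, which holds protein kinase A, protein kinase C and calcineurin beneath the plasma membrane, lies on chromosome 14 from 64932217 to 64941221 (hg19). It had 15 reads in A375P, 34 in A375+DMSO, 32 in A375+VEM and 34 in A375R. A375P was low and the other 3 did not differ beyond counting error. A375R was 2.51-fold above A375P, with an interval from 1.33 to 4.96. With every TPM at or under 0.677, AKAP5 was not among the genes tested. When low values were kept, it was above 1.5-fold in A375R, A375+DMSO and A375+VEM, each against A375P.

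In the resistant pair 4 of 8 members tested were above 1.5-fold (AKAP9, AKAP11, AKAP12 and AKAP13) and 0 below, of which AKAP11 and AKAP13 were within it under both other scalings (TMM and a median ratio of 1) and AKAP9 when the median ratio was set to 1. Among all 1689 genes tested 26.8% were above, 17.5% below and 44.3% past it in either direction. The median log2 ratio of the members was 0.46. In the acute pair 2 of 9 were above (AKAP6 and AKAP13, the latter not with TMM scaling) and 0 below, and AKAP1 was below under both other scalings. Of all genes 26.5% were above, 19.7% below and 46.2% in either direction, and the members' median was -0.08.

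The same counts were made with the other control. For A375+DMSO against A375P, AKAP9 alone of 9 was above and 0 were below, beside 26.8%, 18.9% and, in either direction, 45.7% of all genes. The members' median was 0.24 where all genes had 0.09. For A375R against A375+DMSO, AKAP12 alone of 9 was above and 0 were below, beside 10.5%, 9.99% and 20.5%. The members' median was -0.06 where all genes had 0.02. For A375+VEM against A375P, 3 of 9 were above (AKAP6, AKAP9 and AKAP13) and 1 below (AKAP1), beside 36.9%, 25.3% and 62.1%. The members' median was 0.29. These comparisons share libraries. In none was the share of members past 1.5-fold clearly above that of all genes: the resistant pair had 4 of 8 beside 44.3%, but 1 of 8 beside 43.2% at a median ratio of 1 and 2 of 8 beside 43.9% with TMM scaling.

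**Figure D3:**
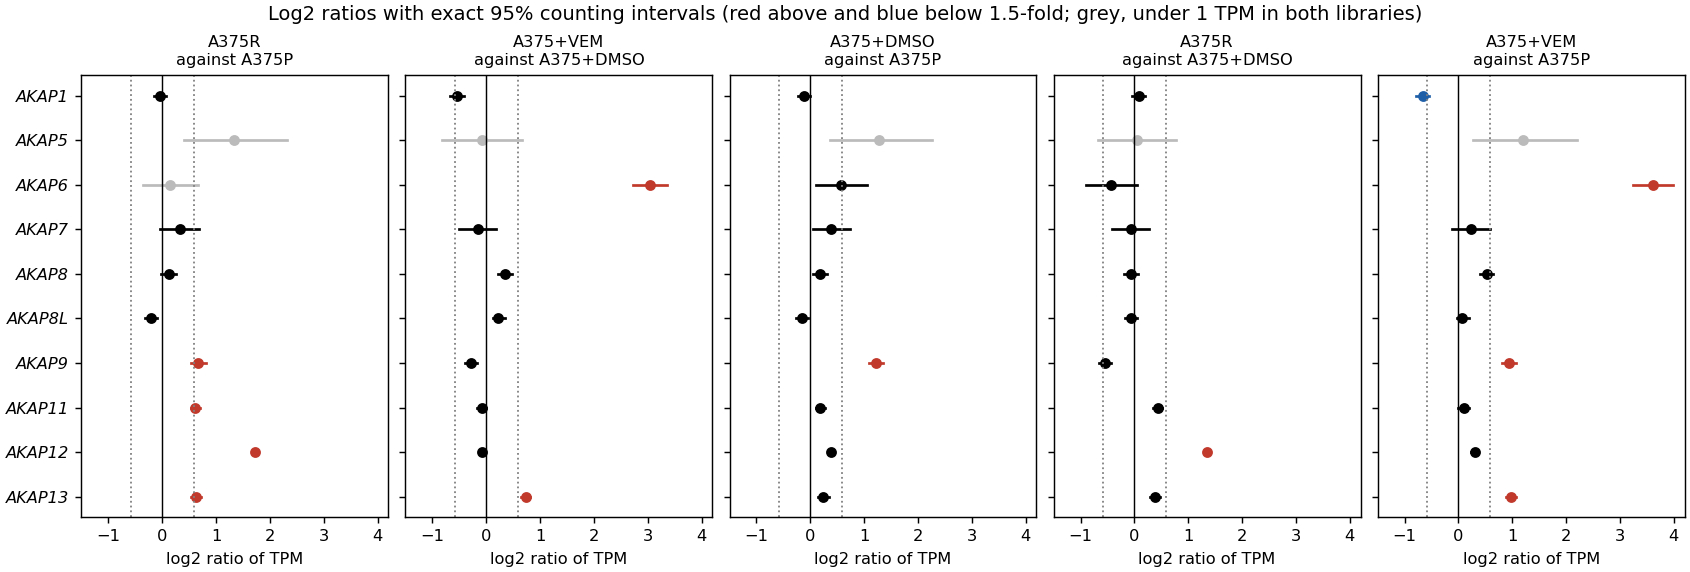
Log2 ratio of TPM (horizontal axes) of each gene in the 5 comparisons, with exact 95% intervals on the reads as lines. Red points were above and blue points below 1.5-fold (dotted lines), black points were within it, and grey points had a TPM under 1 in both libraries. AKAP12 is past the threshold against both controls in A375R, and AKAP6 against both in A375+VEM.

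Outside the 10 members, 8 genes were listed as other anchors. AKAP3, AKAP4 and AKAP14 had 9 reads or fewer in every library. AKAP2 had a TPM of 35.4 in A375P, 35.3 in A375+DMSO, 35.6 in A375+VEM and 50.3 in A375R, so it was highest in A375R, as AKAP11 and AKAP12 were, at 1.42-fold of A375P (interval 1.34 to 1.51). AKAP10, an anchor with mitochondrial forms, stayed between 28.0 and 37.1. ACBD3, a Golgi protein that also binds a regulatory subunit, had 136 in A375P, 75.3 in A375+DMSO, 67.6 in A375+VEM and 109 in A375R. ARFGEF1 and ARFGEF2 encode exchange factors for ARF GTPases, and ARFGEF2 has anchoring sequences for protein kinase A. ARFGEF1 had a TPM between 22.0 in A375+VEM and 37.7 in A375R. ARFGEF2 had 52.4 in A375P, 28.8 in A375+DMSO, 46.3 in A375+VEM and 31.9 in A375R. Of the 5 genes of this list tested, ARFGEF2 alone was past 1.5-fold in the study's pairs. Of all genes, 44.3% were past it in the resistant pair and 46.2% in the acute pair. ARFGEF2 was lower in the resistant pair and higher in the acute. The latter did not hold under either other scaling. The direction in A375R depended on the control, since ARFGEF2 was 0.61-fold of A375P but 1.11-fold of A375+DMSO (interval 1.04 to 1.18). AKAP17A, a splicing regulator that binds protein kinase A, was not on the list and was added after its values were seen. It had a TPM of 9.62 in A375P, 4.50 in A375+DMSO, 3.86 in A375+VEM and 4.77 in A375R, so A375P was high. A375R was 0.495-fold of A375P (interval 0.424 to 0.577) but 1.06-fold of A375+DMSO (interval 0.882 to 1.27).

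Of a list of 34 genes that make, sense or pass on cAMP signals, 32 were in the table and 19 were tested in each of the study's pairs. In the resistant pair 5 were above 1.5-fold and 4 below, and in the acute pair 2 were above and 7 below, or 47.4% of those tested in each, near the share of all genes. The median log2 ratio was 0.31 in the resistant pair and -0.17 in the acute pair. ADCY1 and ADM were below in both. With A375+DMSO as the control of A375R, both were within 1.5-fold. There ADCY1 was at 0.712-fold (interval 0.54 to 0.934) and ADM at 0.838-fold (interval 0.7 to 1). ADCY1, an adenylyl cyclase stimulated by calcium, had a TPM of 2.6 in A375P, 1.31 in A375+DMSO, 0.302 in A375+VEM and 0.929 in A375R. ADM, the peptide hormone adrenomedullin, had 88.7 in A375P, 21.7 in A375+DMSO, 5.07 in A375+VEM and 18.2 in A375R.

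In 3 receptor genes the resistant and acute pairs went opposite ways, past 1.5-fold in both pairs. This held for none of them when A375+DMSO was the control of A375R. Receptors past the threshold in a single pair are not counted here, whatever their direction in the other. ADRB1 and ADORA2A then lay on the same side as in the acute pair, and AVPR2 was near no difference. ADRB1, a beta-adrenergic receptor, had 9 reads in A375P, 40 in A375+DMSO, 7 in A375+VEM and 25 in A375R. The adenosine receptor ADORA2A had a TPM of 3.28 in A375P, 0.846 in A375+DMSO, 4.09 in A375+VEM and 1.35 in A375R. The vasopressin receptor AVPR2 had 5.58 in A375P, 2.17 in A375+DMSO, 8.72 in A375+VEM and 2.06 in A375R. Against A375+DMSO, A375R was 0.646-fold for ADRB1 (interval 0.375 to 1.09), 1.60-fold for ADORA2A (interval 0.884 to 2.96) and 0.951-fold for AVPR2 (interval 0.584 to 1.55), each within counting error. Among known partners of the anchors, the adenylyl cyclase ADCY6 had a TPM of 40.5 in A375P, 45.9 in A375+DMSO, 65.4 in A375+VEM and 41.7 in A375R. It was highest in A375+VEM, at 1.42-fold of A375+DMSO (interval 1.35 to 1.5), which is within 1.5-fold. Of 4 partners tested in the acute pair, 0 were above 1.5-fold and 2 below, beside 46.2% of all genes past it in either direction. ADCY2, ADCY8 and CACNA1C had 21 reads or fewer in every library.

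**Figure D4:**
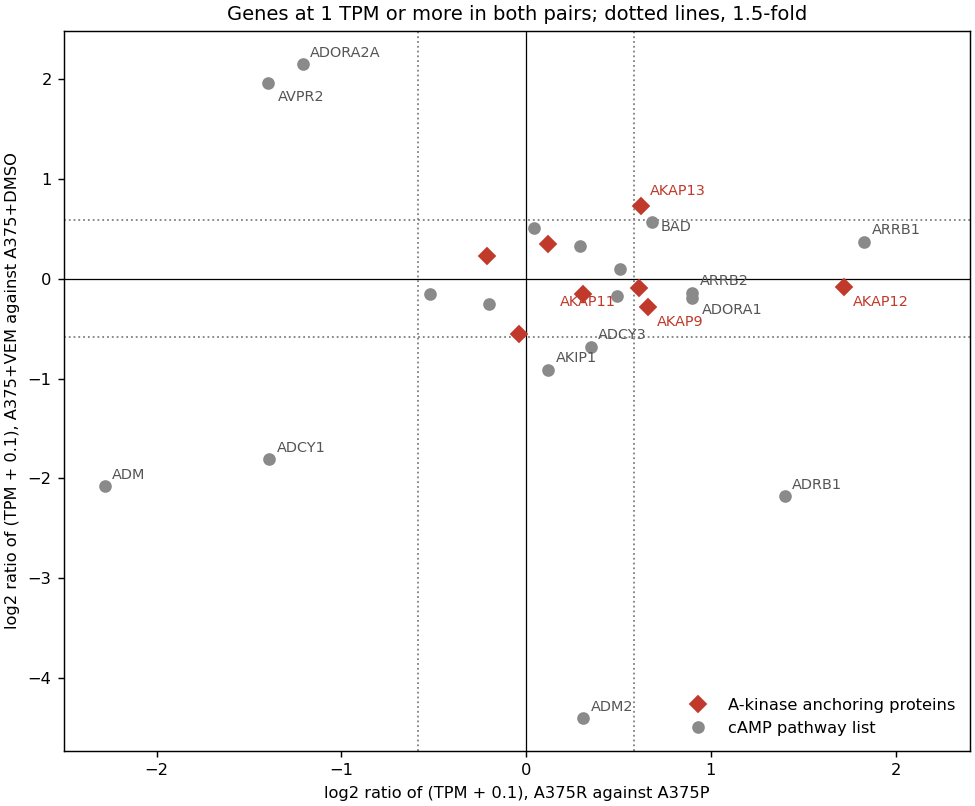
Log2 ratio of (TPM + 0.1) in A375R against A375P (horizontal axis) and in A375+VEM against A375+DMSO (vertical axis) for the 8 anchoring protein genes (red diamonds) and 18 genes of the cAMP list (grey circles) tested in both pairs. Dotted lines are 1.5-fold, and genes past it in either pair are named. AKAP12 lies far to the right near 0 on the vertical axis, and AKAP6, under a TPM of 1 in both libraries of the resistant pair, is not drawn.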

How the data were processed

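RNA-seq libraries of the 4 conditions were analysed, 1 each. The authors deposited 1 table that gives each gene a whole-number count of reads and a TPM in every library. The deposited TPM equals the count divided by gene length, scaled per library. The submitters' notes name hg19, HISAT, HISAT2, TopHat2 and Bowtie2, while the counting program is not given in the sources used here. The 2864 genes of the table are the alphabetical start of the gene list, and 1 incomplete row was left out. These genes carry between 8.48% and 8.94% of each library's TPM. Ratios of (TPM + 0.1) were computed over all genes. A gene counted as tested where either library reached a TPM of 1, with 1.5-fold as the threshold. No test between conditions was possible without replicates. Alternatives were a pseudocount of 1, no filter, a TPM of at least 5, a median ratio of 1, TMM factors from edgeR and a 2-fold threshold, and the other control for single members. In counts simulated from A375P for 2864 genes, the ratio step recovered 97.5% of 200 genes changed 3-fold and made 28 calls among the unchanged genes. The simulated libraries differed by counting error only, and genes with few reads were not among those changed. Changes near 1.5-fold and differences between cultures were not simulated, so the 28 calls give no rate of false calls for the real libraries. Genes named were all members, genes of the list of other anchors at a TPM of 1, cAMP genes past 1.5-fold in both pairs and the 3 profiles nearest to the widest-ranging member. Further genes were named after their values were seen. A gene of the cAMP list that enters its counts is not reported here by name. The members and lists were chosen with earlier results of these data known. RefSeq promoters (GRCh38.p14) and GENCODE 29 served only for sequences and annotation. Tools were edgeR 4.0.16 in R 4.3.3, and pandas 2.3.3, scipy 1.17.1, matplotlib 3.10.9 and numpy 2.4.6 in Python 3.11.15.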

Additional observations from a re-analysis of the deposited data

Results flagged for a closer look

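In 3 members the study's pairs lay on opposite sides of no difference, each beyond counting error, and without replicates that difference was not tested. The share of all genes that did so was not computed, so the count is not a trait of the members. AKAP12 had a log2 ratio of 1.72 in A375R against A375P and of -0.08 in A375+VEM against A375+DMSO, the latter well within 1.5-fold. AKAP9 had 0.66 in the resistant pair and -0.28 in the acute pair. AKAP8L had -0.21 and 0.23, both within 1.5-fold, and the latter was 0.08 with TMM scaling. With A375+DMSO as the control of A375R, AKAP12 stayed at 1.34. AKAP9 was then at -0.55, on the side of its acute ratio, and AKAP8L at -0.06, within counting error.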

How the results depend on the processing

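AKAP12 in A375R against both controls, AKAP6 in A375+VEM against both and AKAP9 in A375+DMSO against A375P were past 1.5-fold under all 6 alternatives. The number of members past the threshold in A375R against A375P was 4. It was 1 (AKAP12) after scaling to a median ratio of 1 and also at a 2-fold threshold, and 2 (AKAP9 and AKAP12) with TMM scaling. In A375+VEM against A375+DMSO it was 2, and 1 (AKAP6) at 2-fold. With TMM scaling it stayed at 2, but these were AKAP6 above and AKAP1 below, at a log2 ratio of -0.70, in place of AKAP6 and AKAP13. In A375+DMSO against A375P it was 1, and 2 when low values were kept, by which AKAP5 enters here and in A375R and A375+VEM against A375P. In A375+VEM against A375P it was 4, and 1 (AKAP6) at 2-fold. With A375+DMSO as the control of A375R, AKAP9 had a log2 ratio of -0.55 in place of 0.66. Of 50 log2 ratios of members, 50 kept their sign with a pseudocount of 1, 48 at a median ratio of 1 and 47 with TMM scaling. Causes of these changes were not tested, except that a stricter threshold and a filter change the counts by construction. No paired analysis was possible because each condition had 1 library, and for the same reason no library could be left out. Intervals on the reads cover counting error only, and AKAP5, with 15 to 34 reads, had the widest.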
